A study of Drosophila melanogaster with 9 samples.

Results

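The genes described here are 57 protein-coding genes of *Drosophila* S2R+ cells that had more mRNA when the RNA-binding protein Hrb98DE was depleted with either of 2 double-stranded RNAs (dsRNAs), out of 17559 genes listed. They were chosen by their own levels. Read counts were scaled to counts per 1000000 reads assigned to genes (CPM), and a gene was taken if its mean over the 9 libraries was 3 CPM or more, if every one of the 6 knockdown libraries lay above the highest control library, and if both knockdown means were at least 35% above the control mean. Genes with the symbol of a noncoding RNA were dropped.

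KD1 cells received the first dsRNA against Hrb98DE and KD2 cells the second, while lacZ cells, the control, received dsRNA against a bacterial gene. Each of the 3 groups held 3 replicates, and all were S2R+ cells, an adherent line from late embryos of the Oregon R strain with features of blood cells. Cultures kept at 25 °C were given dsRNA repeatedly, for 6 h without serum, and were collected on day 5, after which polyadenylated RNA was sequenced. Hrb98DE itself stood at 58.5 to 74.9 CPM over the knockdown libraries, against 464 to 481 CPM over the lacZ libraries, so the targeted mRNA was low in every library labelled as a knockdown. Its paralog Hrb87F was also lower, at 166 to 185 CPM in KD1, 81.9 to 107 CPM in KD2 and 413 to 427 CPM in lacZ.

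Hrb98DE is an hnRNP, a family of abundant proteins that bind pre-mRNA and mRNA and take part in splice site choice, export, stability and translation. Several of the genes below make ribosomes. Ribosome assembly begins in the nucleolus, where ribosomal RNA is transcribed, modified by small nucleolar ribonucleoproteins, cut and folded, and where many assembly factors join and leave the growing subunits before export to the cytoplasm. Others encode secreted and surface proteins of *Drosophila* blood cells, which take up bacteria and debris and lay down basement membrane.

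Selection narrowed the genes in 3 steps. Of 6839 genes with a mean of 3 CPM or more, 714 (10.4%) had all 6 knockdown libraries above all lacZ libraries. Of those, 71 also met both fold limits, and 13 with a noncoding symbol and 1 with no symbol were dropped. The mirror rule, with all knockdown libraries below lacZ and the same fold limit, picked 215 coding genes, so the genes that rose were the smaller group. The selection rested on the lacZ libraries unequally: 86 genes passed when lacZ replicate 2 was left out, and 53 of the 57 were among them, whereas without lacZ replicate 1 the number was again 57 but 11 of the genes had been replaced by others.

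The ratios were modest. The ratio of the KD1 mean to the lacZ mean ranged from 1.36 to 2.51 with a median of 1.48, and the KD2 ratio ranged from 1.36 to 3.14 with a median of 1.51. Only 6 genes reached a ratio of 2 in both knockdowns, 16 had a smaller ratio of 1.5 to 2, and 35 stayed below 1.5. In a DESeq2 fit over all genes, 54 members were past the threshold (adjusted p under 0.05 and more than 1.3-fold) in KD1, where 2.24% of all genes tested rose, and 57 in KD2, where 2.93% rose. These counts only restate the choice, since the same contrasts selected the genes. All p-values measure the spread between these replicates. The methods of the study call them biological replicates and name more per dsRNA than the 3 analysed here, and the labels do not say whether they were separate cultures.

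Values at the limits of the rule were close on both sides. Fib entered with ratios of 1.36 in KD1 and 1.37 in KD2, CG32281 with 1.38 and 1.36, and CG31642 with 1.44 and 1.36. Just outside were CG11456 with 1.348 in KD1 and 1.47 in KD2 and CG4259 with 1.349 and 1.39. The gene nop5, whose product sits in the same particles as that of Fib, also just missed the limit in KD1, with means of 195 CPM in KD1, 204.5 CPM in KD2 and 145 CPM in lacZ. At the limit on level, CG7607, Ance-4 and HDAC11 entered with means over 9 libraries of 3.19, 3.28 and 3.30 CPM, while CG14221, CG7069 and CG31624 stayed out with 2.93, 2.68 and 2.60 CPM.

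**Figure D1:**
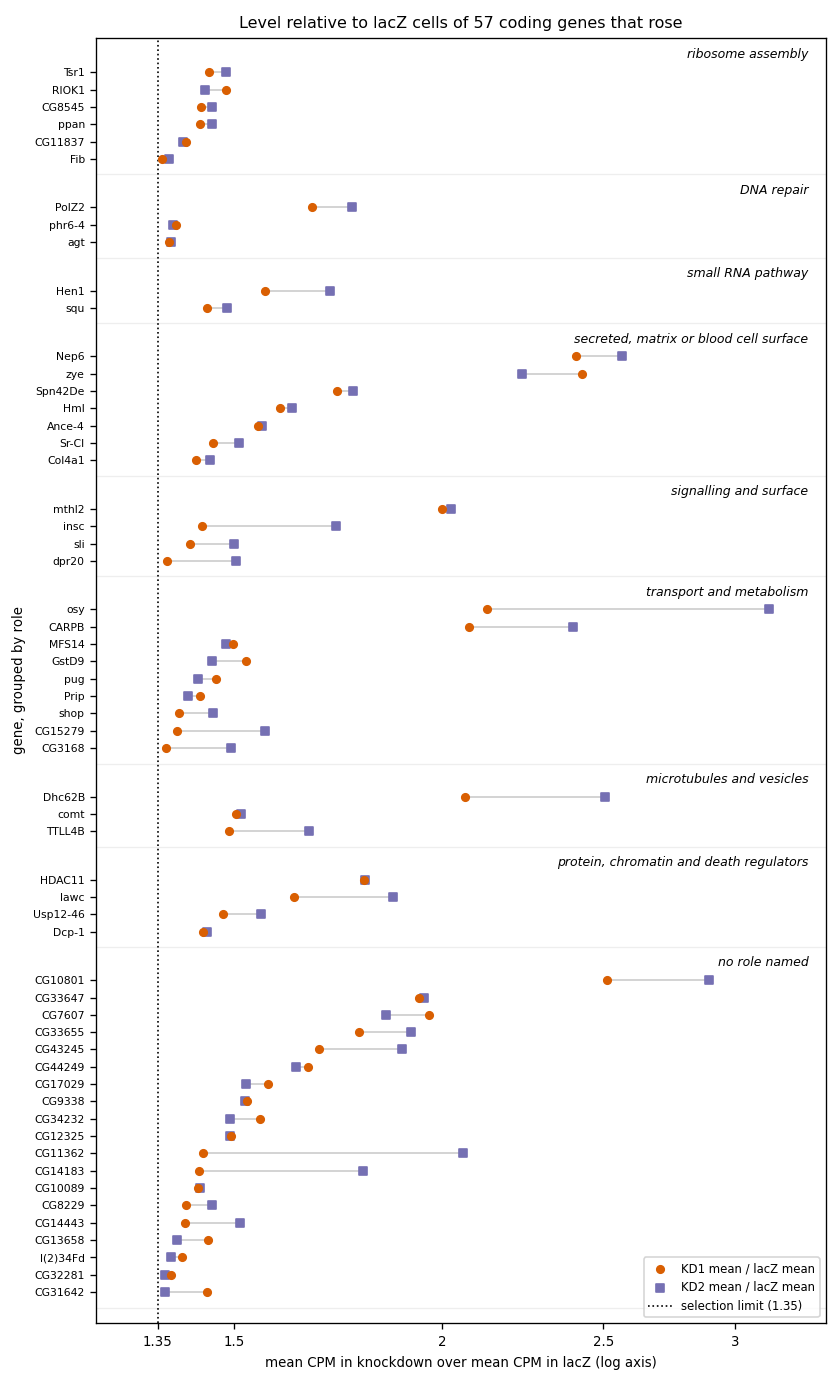
Ratio of the KD1 mean (circles) and the KD2 mean (squares) to the lacZ mean for each of the 57 genes, on a log axis and grouped by known role, with 3 libraries in each group. The 6 ribosome assembly genes sit close together between 1.36 and 1.48, whereas the ratios above 2 are spread over several roles.

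The 6 genes with the highest smaller ratio belonged to no common pathway. CG10801, a gene with no named role at X:3460592-3462500 of the BDGP6 genome, stood at 4.603, 4.06 and 4.34 CPM in the KD1 libraries and 5.21, 4.21 and 5.55 CPM in the KD2 libraries, against 1.79, 1.85 and 1.53 CPM in the lacZ libraries. The lowest knockdown library was 2.19 times the highest lacZ library, the widest gap among the 57. Nep6, a member of the neprilysin family of membrane metallopeptidases, had 4.35, 5.09 and 3.56 CPM in KD1 and 3.96, 4.70 and 5.21 CPM in KD2, against 2.07, 1.34 and 1.99 CPM in lacZ. The gene zye encodes a zona pellucida domain protein of the apical extracellular matrix. Its level was 25.9, 23.4 and 23.4 CPM in KD1 and 29.4, 13.1 and 24.5 CPM in KD2, against 9.09, 12.01 and 8.89 CPM in lacZ. KD2 replicate 2 was the low library of zye, only 1.09 times the highest lacZ library, and the KD2 spread of this gene was the largest of any member (a coefficient of variation of 37.7%).

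The ABC transporter gene osy, whose product helps to build lipid barriers of the cuticle, had 5.23, 2.96 and 4.34 CPM in KD1 and 7.59, 3.80 and 7.13 CPM in KD2, against 1.79, 2.11 and 1.99 CPM in lacZ. It held the highest KD2 ratio, 3.14, and its low knockdown libraries were KD1 replicate 3 and KD2 replicate 2. CARPB, a carbonic anhydrase-related gene, had 11.0, 13.8 and 9.33 CPM in KD1 and 12.7, 14.6 and 12.1 CPM in KD2, against 6.82, 4.34 and 5.29 CPM in lacZ. Dhc62B, which encodes a dynein heavy chain of the axonemal type, had 10.15, 8.12 and 8.19 CPM in KD1 and 10.7, 10.22 and 11.2 CPM in KD2, against 3.86, 4.66 and 4.29 CPM in lacZ. All 3 groups of Dhc62B were separate, with every KD2 library above every KD1 library and both above lacZ.

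The next 6 genes included mthl2, a receptor of the methuselah-like family of G protein-coupled receptors. It was the most highly expressed of the 12 genes in the plot of levels by library, with 60.9, 62.8 and 64.1 CPM in KD1 and 64.2, 69.1 and 56.9 CPM in KD2, against 33.8, 29 and 31.1 CPM in lacZ. The serpin gene Spn42De, for an inhibitor of serine proteases, had 21.0, 22.7 and 18.7 CPM in KD1 and 21.7, 21.3 and 20.7 CPM in KD2, against 13.8, 10.3 and 11.96 CPM in lacZ. HDAC11, a histone deacetylase, had 4.48, 3.41 and 3.70 CPM in KD1 and 3.64, 3.87 and 4.11 CPM in KD2, against 2.55, 1.92 and 1.99 CPM in lacZ. Spn42De and mthl2 were well above the lower limit of level, while HDAC11 was near it, and exons of Nct on the opposite strand overlapped 22.1% of HDAC11.

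The other 3 of these genes had no named role. CG33655 had 25.2, 24.7 and 26.9 CPM in KD1 and 26.9, 29.8 and 25.7 CPM in KD2, against 12.1, 15.5 and 15.4 CPM in lacZ. Exons of CG9485 on the opposite strand covered 76.5% of its exonic length. The methods of the study name a stranded library kit, but whether strand was used in counting is not given in the sources used here. Reads in that stretch may have been left out or assigned to either gene. CG9485 had 119.7, 114.8 and 129 CPM in KD1, KD2 and lacZ cells. CG33647 had 5.30, 7.09 and 5.27 CPM in KD1 and 4.71, 7.94 and 5.14 CPM in KD2, against 3.65, 2.17 and 3.30 CPM in lacZ. CG7607 had 4.16, 3.61 and 3.92 CPM in KD1 and 4.21, 4.004 and 2.81 CPM in KD2, against 1.93, 2.11 and 1.92 CPM in lacZ.

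**Figure D2:**
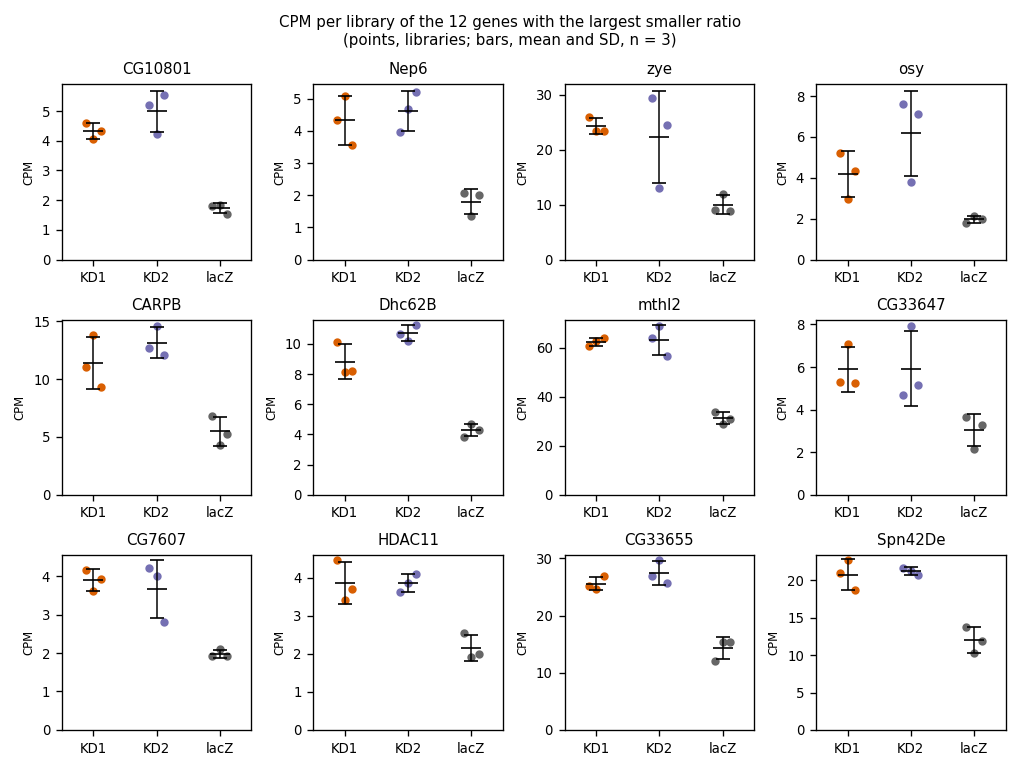
CPM of the 12 genes with the highest smaller ratio in each KD1, KD2 and lacZ library, with points for libraries and bars for the mean and SD (n = 3). All knockdown points lie above all lacZ points by selection, and KD2 replicate 2 is the low point for zye at 13.1 CPM.

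Among known roles, ribosome assembly held 6 members with ratios between 1.36 and 1.48. They were Fib, the methyltransferase fibrillarin of box C/D small nucleolar particles, CG8545, the fly counterpart of the ribosomal RNA methyltransferase Nop2 of yeast, and CG11837, the counterpart of the dimethyltransferase Dim1 of yeast. The other 3 were Tsr1 and the atypical kinase RIOK1, which act late on the small subunit, and ppan (peter pan), which acts on the large subunit. Most were abundant, RIOK1 less so than several members of other roles, and their median lacZ level was 36.7 CPM per kb of exon, against 5.00 over all 57.

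CG8545 had the highest CPM of all members, with 318, 278 and 310.4 CPM in KD1 and 334, 282 and 304 CPM in KD2, against 189, 232 and 212 CPM in lacZ. Fib stood at 214, 193 and 202 CPM in KD1 and 215, 181 and 218 CPM in KD2, against 139, 171 and 138 CPM in lacZ. Tsr1 stood at 162, 143 and 163 CPM in KD1 and 166, 150.2 and 162 CPM in KD2, against 98.5, 120.1 and 104.3 CPM in lacZ. In all 3 genes lacZ replicate 2 was the highest control library, KD1 replicate 3 the lowest KD1 library and KD2 replicate 2 the lowest KD2 library. Exons of Tbc1d8-9 on the opposite strand overlapped 19.4% of Tsr1. The remaining members had means of 75 ± 4.53 CPM in KD1, 76.3 ± 8.70 CPM in KD2 and 52.5 ± 5.24 CPM in lacZ for ppan, and RIOK1 had 34.2 ± 1.72, 33.2 ± 3.78 and 23.1 ± 2.36 CPM in the same order (SD, n = 3 each). CG11837 had 34.4 ± 1.37 CPM in KD1, 34.3 ± 3.86 CPM in KD2 and 24.5 ± 0.773 CPM in lacZ.

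The other assembly factors that were tested also had positive fold changes. A list of ribosome assembly factors, put together after these 6 had been seen, had 33 genes tested, and all 33 had a log2 fold change above 0 in KD1 and in KD2. Of these 33, 14 passed the threshold upward in KD1, where 2.24% of all genes did, and 14 in KD2, where 2.93% did. The 6 selected genes are in both counts. None of the 33 passed it downward. The median log2 fold change of the list was 0.36 in KD1 and 0.34 in KD2, where the median over all 7406 genes was 0.00 in both. Of the 27 factors outside the 57 genes, all 27 were above 0 in both, with medians of 0.34 and 0.31 and 8 past the threshold in each. Those that rose in both included nop5 (0.46 in KD1 and 0.53 in KD2), the DEAD-box helicases Dbp73D (0.45 and 0.49) and pit (0.44 and 0.46), the nucleolar protein Nopp140 (0.43 and 0.41) and mbm (0.44 and 0.49). The smallest values were those of CG4364, at 0.13 and 0.14, and all 33 stayed above 0 under each alternative fit that was run.

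**Figure D3:**
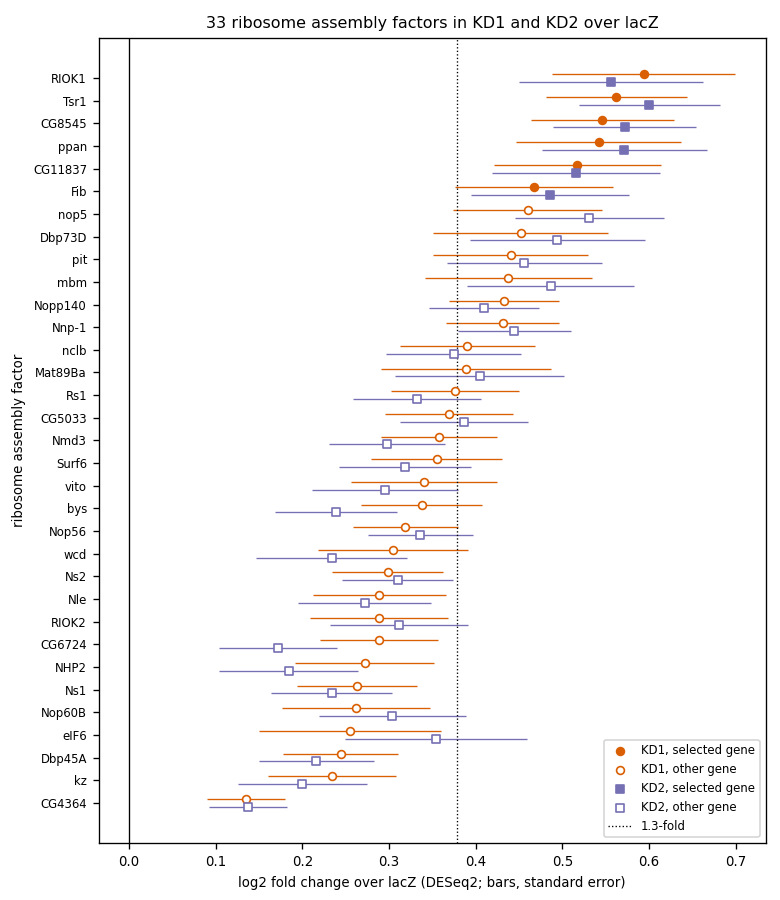
DESeq2 log2 fold change over lacZ of 33 ribosome assembly factors in KD1 (circles) and KD2 (squares), with standard errors from 3 libraries a group. Filled symbols are the 6 selected genes, open symbols the other 27, and all lie right of 0 with a lowest value of 0.13.

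The summed level of the 33 factors was 5544, 5092 and 5440 CPM in KD1 and 5585, 4967 and 5488 CPM in KD2, against 4033, 4592 and 4147 CPM in lacZ. Neither knockdown overlapped lacZ, KD1 lay within the range of KD2, and lacZ replicate 2 came closest to the knockdown libraries. The 6 selected genes are part of this sum and were chosen for that order. The 27 others summed to 4702, 4342 and 4619 CPM in KD1 and 4712, 4228 and 4654 CPM in KD2. In lacZ they summed to 3509, 3960 and 3598 CPM, again without overlap. The share of reads from the mitochondrial large ribosomal RNA ran the other way inside each group, at 0.854%, 1.21% and 1.13% in KD1, 1.065%, 1.53% and 1.3% in KD2 and 1.71%, 0.9595% and 1.19% in lacZ. Its part in the result was not tested. Without lacZ replicate 2, 20 factors passed the threshold in KD1 and 21 in KD2, and without lacZ replicate 1 the counts were 10 and 11.

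DNA repair contributed 3 members that act on different lesions. PolZ2 encodes an accessory subunit of the translesion polymerase zeta, phr6-4 the photolyase of (6-4) photoproducts, and agt an alkylguanine-DNA alkyltransferase that repairs alkylated bases. PolZ2 stood at 19.3, 17.5 and 17.2 CPM in KD1 and 19.3, 17.2 and 20.6 CPM in KD2, against 10.5, 10.8 and 11.0 CPM in lacZ. The levels of phr6-4 were 25.2 ± 0.885 CPM in KD1, 25.1 ± 1.73 CPM in KD2 and 18.2 ± 2.11 CPM in lacZ, and those of agt were 15.1 ± 1.87, 15.1 ± 1.25 and 11.0 ± 0.582 CPM (SD, n = 3 each). Exons of twr on the opposite strand overlapped 29.3% of agt, and exons of noi overlapped 12.4% of PolZ2. Of 39 DNA repair genes tested, a list also written after the members were known, 3 rose in KD1, 4 rose in KD2 and none fell. Over all genes 2.24% rose in KD1 and 2.93% in KD2. All 3 that rose in KD1 were the selected genes, and of the 36 others 0 rose in KD1 and 1 in KD2. That gene was mre11, for a nuclease that trims DNA ends, with a log2 fold change of 0.39 in KD2 and 0.35 in KD1, where it did not pass. PolZ1, the catalytic partner of PolZ2, had 0.21 and 0.33 and did not pass in either.

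Hen1 and squ act on small RNAs. Hen1 encodes the methyltransferase that caps the ends of Piwi-bound and Argonaute-bound small RNAs with a methyl group, and squ (squash) a protein of the germ line piRNA pathway. Hen1 stood at 20.4, 17.3 and 17.2 CPM in KD1 and 21.3, 19.4 and 19.5 CPM in KD2, against 11.9, 11.3 and 11.9 CPM in lacZ. The levels of squ were 34.0 ± 2.74 CPM in KD1, 35.0 ± 1.49 CPM in KD2 and 23.5 ± 0.947 CPM in lacZ (SD, n = 3 each), with 16.3% of its exons shared with grp on the same strand. Of 29 genes in a list of the small RNA pathways written after the members were known, 2 rose and 1 fell in KD1, and 3 rose and 2 fell in KD2. Over all genes 2.24% rose and 5.13% fell in KD1, and 2.93% rose and 5.2% fell in KD2. Both that rose in KD1 were the selected genes, and of the 27 others 1 rose in KD2. AGO3, a Piwi-family protein, fell in both, with log2 fold changes of -0.90 and -0.76, so the list as a whole did not move one way.

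Secreted proteins, matrix and blood cell surface molecules made up 7 members. Besides Nep6, zye and Spn42De they were Hml (hemolectin), a large secreted protein of blood cells that takes part in clotting, Sr-CI, a class C scavenger receptor for bacteria, Col4a1, a chain of basement membrane collagen, and Ance-4, a relative of angiotensin-converting enzyme. Sr-CI stood at 96.5, 88.3 and 88.9 CPM in KD1 and 99.9, 90.03 and 94.1 CPM in KD2, against 57.4, 62.0 and 68.6 CPM in lacZ. Hml stood at 21.1, 18.7 and 18.02 CPM in KD1 and 22.2, 18.3 and 18.4 CPM in KD2, against 10.9, 13.03 and 12.3 CPM in lacZ. Col4a1 had means of 31.0 ± 1.43 CPM in KD1, 31.6 ± 1.29 CPM in KD2 and 21.8 ± 1.52 CPM in lacZ (SD, n = 3 each). The other collagen IV chain gene, vkg (viking), also passed the threshold, with means of 17.5 ± 0.744 CPM in KD1, 17.2 ± 1.09 CPM in KD2 and 12.97 ± 0.525 CPM in lacZ, but missed the fold limit of the selection.

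Most other markers of blood cells did not pass the threshold. Of 13 markers of plasmatocytes, the phagocytic blood cells of the fly, 12 had a mean of 1 CPM or more and 4 rose in each knockdown, namely Col4a1, Sr-CI, Hml and vkg, with none falling. All but vkg had been selected for rising, and over all genes 2.24% rose in KD1 and 2.93% in KD2. The defining factors srp and ush, which encode transcription factors of blood cells, and the growth factor receptor Pvr had ratios of 0.960, 1.02 and 0.998 in KD1 and of 1.06, 1.06 and 0.987 in KD2. The phagocytic receptors eater and crq had ratios of 0.794 and 0.917 in KD1 and 0.772 and 0.881 in KD2. The lowest ratios among the 12 were those of He, a mucin-like surface protein gene, at 0.613 in KD1 and 0.693 in KD2, without passing the threshold, and NimC1 was near 0 in all groups, at 0.154, 0.151 and 0.233 CPM. The summed level of the list was 2092 to 2111 CPM in KD1, 2107 to 2192 CPM in KD2 and 2050 to 2117 CPM in lacZ, so that lacZ overlapped both knockdowns. In bulk RNA, fewer or more cells of a type cannot be told apart from less or more RNA per cell. Sums of the muscle, fat body, gut and germ line lists overlapped between all groups. The neuron list summed to 29.4 to 31.8 CPM in KD1, 32.9 to 35.0 CPM in KD2 and 32.9 to 35.4 CPM in lacZ, where KD1 lay below lacZ without overlap. Only 3 of its 10 genes had a mean of 1 CPM or more. Of these 3, none passed the threshold in KD1, and 1 rose in KD2. The part of this list in the result was not tested.

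Proteins of signalling and of the cell surface were encoded by 4 members. The abundant gene sli (slit) encodes a secreted guidance ligand that binds Robo receptors. It stood at 262, 259 and 262 CPM in KD1 and 289, 268 and 275 CPM in KD2, against 191, 174 and 189.7 CPM in lacZ. Its receptor genes robo1 and robo2 did not pass the threshold, with log2 fold changes of -0.15 and -0.19 in KD1 and -0.11 and -0.28 in KD2. The immunoglobulin-domain gene dpr20 had means of 22.8 ± 0.697 CPM in KD1, 25.0 ± 2.83 CPM in KD2 and 16.6 ± 1.15 CPM in lacZ, and insc (inscuteable), an adaptor of asymmetric cell division, had 12.1 ± 0.0658, 14.6 ± 3.39 and 8.44 ± 1.101 CPM (SD, n = 3 each). The fourth was mthl2. Of 4 dpr genes tested, dpr20 rose and dpr3 fell in both knockdowns, the second with log2 fold changes of -1.67 and -1.26.

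Transport and metabolism contributed 9 members. MFS14, a transporter of the major facilitator superfamily, stood at 137, 149 and 149.9 CPM in KD1 and 130.1, 158 and 144 CPM in KD2, against 93.7, 96.0 and 101 CPM in lacZ. Prip, a water channel of the aquaporin family, had means of 56.3 ± 1.03 CPM in KD1, 55.4 ± 2.08 CPM in KD2 and 39.4 ± 3.47 CPM in lacZ. GstD9, a glutathione transferase of the delta class, had 21.5 ± 1.1, 20.5 ± 2.52 and 14.1 ± 0.566 CPM (SD, n = 3 each). MFS14 varied most in KD2 and Prip in lacZ. The folate enzyme gene pug, the sulfite oxidase gene shop and the transporter gene CG3168 rose with KD1 ratios of 1.46, 1.39 and 1.37 and KD2 ratios of 1.43, 1.46 and 1.49. CG15279, a member of the neurotransmitter transporter family, had ratios of 1.39 and 1.57 and did not pass in KD1 (DESeq2 adjusted p = 0.0992). Of the 6 other delta class glutathione transferases tested none passed the threshold in either knockdown. Of the 7 other MFS genes only MFS17 passed, falling by 1.73 and by 1.72 on the log2 scale. Over all genes 2.24% rose and 5.13% fell in KD1, and 2.93% rose and 5.2% fell in KD2. Such counts therefore do not set these families apart.

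Members of the remaining named groups worked on microtubules, vesicles, chromatin and protein turnover. TTLL4B, a tubulin tyrosine ligase-like enzyme, had means of 6.23 ± 0.317 CPM in KD1, 6.96 ± 0.917 CPM in KD2 and 4.18 ± 0.178 CPM in lacZ. The gene comt encodes the fusion factor NSF, which takes apart membrane fusion complexes, and had 8.78 ± 0.199, 8.84 ± 0.773 and 5.84 ± 0.711 CPM. Usp12-46, a ubiquitin-specific protease, had 41.7 ± 0.943, 44.0 ± 3.25 and 28.3 ± 1.06 CPM (SD, n = 3 each). None of the 14 other ubiquitin-specific proteases tested passed the threshold. Over all genes 2.24% rose and 5.13% fell in KD1, and 2.93% rose and 5.2% fell in KD2. With so few genes passing, 0 of 14 does not set this family apart. Dcp-1, an effector caspase of programmed cell death, had means of 19.8 ± 2.84 CPM in KD1, 19.9 ± 0.677 CPM in KD2 and 13.8 ± 2.00 CPM in lacZ. The 4 other caspases tested, Drice among them, did not pass, which was also the case for most genes. The gene lawc, named for mutant legs, aristae and wings, had 10.6 ± 0.339 CPM in KD1, 12.2 ± 0.977 CPM in KD2 and 6.52 ± 0.434 CPM in lacZ (SD, n = 3 each), and exons of Trf2 on the opposite strand overlapped 14.8% of it.

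No role is named here for the other 19 members, all known by a CG number except l(2)34Fd. They are CG10801, CG33647, CG7607, CG33655, CG43245, CG44249, CG17029, CG9338, CG34232, CG12325, CG11362, CG14183, CG10089, CG8229, CG14443, CG13658, l(2)34Fd, CG32281 and CG31642. Their ratios ran from 1.38 to 2.51 in KD1 and from 1.36 to 2.89 in KD2. Their lacZ means ran from 1.73 to 62.3 CPM, with a median of 5.56 CPM. The most abundant was CG12325, at 96.6, 86.3 and 96.1 CPM in KD1 and 102, 79.2 and 97.8 CPM in KD2, against 55.1, 72.8 and 58.9 CPM in lacZ. As for Fib, CG8545 and Tsr1, its highest control library was lacZ replicate 2 and its lowest knockdown library KD2 replicate 2. CG8229 shared 47.7% of its exonic length with CG33199 on the same strand, a gene at 0.154, 0.0877 and 0.152 CPM in KD1, KD2 and lacZ. CG44249 shared 33.4% with Snp on the same strand and Usp12-46 shared 26.4% with CG7029, so reads in those stretches cannot be assigned to a single gene.

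Of 591 genes tested in 18 lists of pathways and gene classes, 4 were members (0.677%), a share near that over all 7406 genes (0.770%). They were GstD9 in detoxification, sli in adhesion and guidance, Dhc62B in cytoskeleton and motors, and MFS14 in solute and lipid transport. In the adhesion and guidance list of 39 genes, sli alone rose in each knockdown, while 8 fell in KD1 and 7 in KD2. Over all genes 2.24% rose and 5.13% fell in KD1, and 2.93% rose and 5.2% fell in KD2. Of 58 cytoskeletal genes, 1 rose and 1 fell in KD1, and 2 rose and 1 fell in KD2, with risers near their share of all genes. The JNK, JAK-STAT, Ras-MAPK, Notch, Hippo, innate immune, stress, splicing, chromatin, kinase and histone lists held no member. Those lists were put together with earlier results of the same data known.

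KD1 and KD2 differ in dsRNA sequence and share the lacZ controls, and their direct comparison did not enter the selection except through the lower limits. No member passed an adjusted p of 0.05 between KD1 and KD2 (DESeq2), against 12 of 7406 genes (0.162%). DESeq2 gave an adjusted p to only 5 members and to 2094 of all genes, so few members could pass. An unadjusted p under 0.05 was found in 2 members, against 5.18% of all genes. The edgeR quasi-likelihood test gave an adjusted p to all 57, the lowest being 0.469, and 3 had an unadjusted p under 0.05, against 8.02% of all genes. KD2 had the higher mean CPM in 39 members and KD1 in 18, where KD2 was higher in 46.5% of all genes, and the median log2 ratio of KD1 to KD2 was -0.03, against 0.00 over all genes.

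The 4 largest differences between the dsRNAs were all toward KD2 and were found in weakly expressed genes. For osy the log2 ratio of KD1 to KD2 was -0.57 ± 0.26 (SE), with a 95% interval of -1.08 to -0.06. For CG11362 it was -0.52 ± 0.23, with an interval of -0.97 to -0.07. CG14183 and Dhc62B followed with -0.34 ± 0.24 and -0.28 ± 0.15, and both intervals included 0. Both genes without a named role among these 4 were near the lower limit of level. CG11362 stood at 3.66, 3.35 and 2.85 CPM in KD1 and 4.83, 5.32 and 3.98 CPM in KD2, against 1.93, 2.17 and 2.76 CPM in lacZ. CG14183 stood at 3.72, 3.67 and 3.70 CPM in KD1 and 5.21, 3.11 and 5.62 CPM in KD2, against 2.13, 2.87 and 2.76 CPM in lacZ. Neither passed the threshold in KD1 (DESeq2 adjusted p = 0.0985 and 0.123), and the lowest knockdown library of CG11362 was only 1.03 times its highest lacZ library. Every KD2 library was above every KD1 library in 4 members, Dhc62B, lawc, CG11362 and sli, and the opposite order was found in 0. Over all genes 6.82% had every KD2 library above every KD1 library and 7.21% the opposite order, so that 4 of 57 was near the share of all genes.

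The interval of the KD1 to KD2 ratio lay inside 1.3-fold in both directions for 36 of the 57 and inside 1.5-fold for 51. The share of all genes inside these limits was not computed. Both knockdowns had to exceed the same lacZ libraries, so some closeness was built into the choice. Closeness was also not particular to the members. The quartiles of the log2 ratio were -0.0594 and 0.0549 over all genes, and -0.119 and 0.00164 over the members. The ratio of sli was -0.09, with an interval of -0.19 to 0.01, and that of zye was 0.11, with an interval of -0.48 to 0.71.

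**Figure D4:**
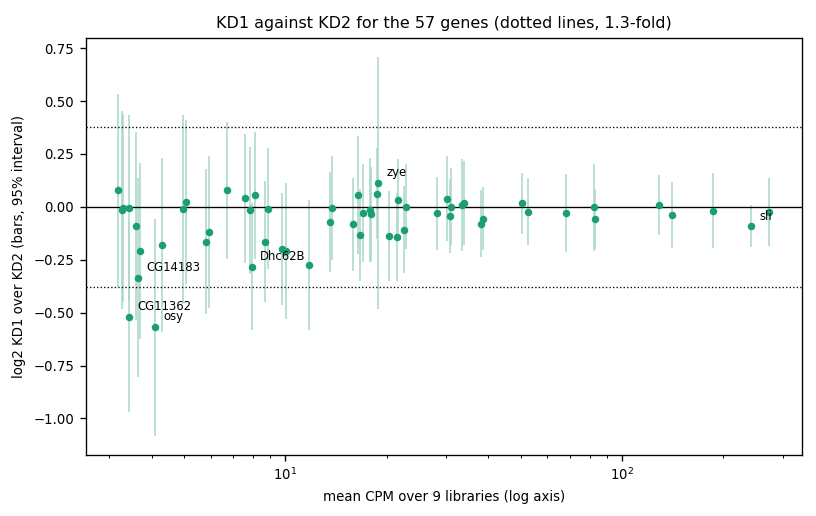
Log2 ratio of KD1 to KD2 (DESeq2, vertical axis, bars for the 95% interval) against the mean CPM over 9 libraries (log axis) for the 57 genes, with dotted lines at 1.3-fold. The values close in on 0 as the level rises, and osy and CG11362 at -0.57 and -0.52 lie lowest.

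The members were weakly expressed next to other coding genes and, without matching for level, of similar length. Their median lacZ level, which enters the rule as a denominator, was 5.00 CPM per kb of exon, against 21.8 over 7043 coding genes tested. Their median exonic length was 2167 bp, against 2147 bp, and their median gene span 2492 bp, against 2782 bp. Among genes with a mean of 3 to 30 CPM the order of the spans turned round, and the members were longer in exons too. The 40 members there had a median span of 2468 bp and a median exonic length of 2141 bp. All 2082 coding genes there had 2040 bp and 1694 bp. The 215 genes that fell had a median span of 6639 bp. Arm 2R held 16 members (28.1%), against 19.96% of the coding genes tested, and chromosome 4 held 0. No members were close neighbours, the nearest pair being Hen1 and CG34232 on 2R, 12156 bp apart.

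Nested genes were frequent among them. An intron of another gene held 9 of the 57 (15.8%), against 4.05% of the coding genes tested, and among genes with a mean of 3 to 30 CPM it was 17.5% against 6.05%. Exons overlapping another gene on the opposite strand were less frequent, at 22.8% against 37.7%, and on the same strand they were at 12.3% against 6.30%. These shares are descriptions and were not tested. Of the 9 hosts, 2 were among the genes that fell. The mirror rule picked 215 of the 6577 coding genes with a mean of 3 CPM or more. In DESeq2, 5.13% of all genes tested fell in KD1 and 5.2% in KD2. A link between nested genes and their hosts was not tested. Nep6 at X:12801661-12804232 lies in an intron of the cyclic nucleotide phosphodiesterase gene Pde9 on the opposite strand, which had means of 24.2 CPM in KD1, 24.4 CPM in KD2 and 49.0 CPM in lacZ. CG7607 at 3L:11199620-11200587 lies in an intron of Plod, for a lysyl hydroxylase of collagen, again on the opposite strand, with 35.7 CPM in KD1, 32.0 CPM in KD2 and 55.5 CPM in lacZ. The log2 fold changes of Pde9 were -0.99 and -0.97 and those of Plod -0.61 and -0.76 in KD1 and KD2. CG8545 in dgt5, CG17029 in brm and shop in htk lay on the strand opposite to their hosts. CG14443 in pigs, CG31642 in stai and CG32281 in CG32278 shared the strand of theirs. None of these hosts passed the threshold, with ratios of 0.910 to 1.2 in both knockdowns. Still, pigs rose by 0.16 in KD1 and 0.30 in KD2 on the log2 scale (DESeq2 adjusted p = 0.0068 and 1.8e-08), short of the fold limit. Its lacZ mean was 401 CPM, against 4.55 CPM for CG14443. Whether reads from introns of same-strand hosts entered the counts of the genes inside them was not tested. CG10801 lies in an intron of a noncoding gene on the same strand, at 0.503, 0.837 and 0.713 CPM in KD1, KD2 and lacZ.

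**Figure D5:**
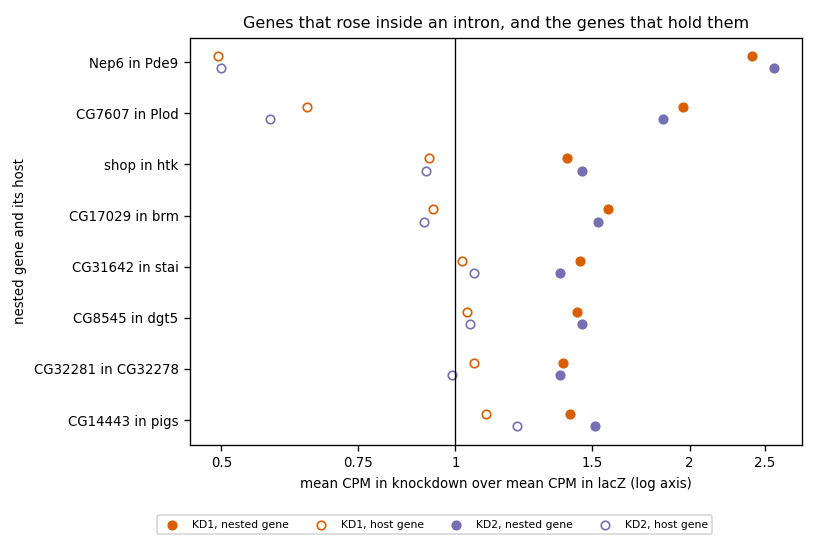
Ratio of the KD1 and KD2 means to the lacZ mean (log axis) for 8 selected genes (filled) that lie in an intron of a coding gene, and for those hosts (open). Pde9 and Plod lie left of 1 at 0.495 to 0.643, whereas the genes inside them lie at 1.85 to 2.57.

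Library size and noise set the precision of these values. Totals ran from 13040608 to 15931035 counts, and the raw count of a member in a library ran from 20 (CG10801) to 5316 (CG8545). The median coefficient of variation over members was 6.35% in KD1, 9.69% in KD2 and 9.44% in lacZ, so the gap between groups was small for many genes: the lowest knockdown library was under 1.1 times the highest lacZ library in 9 members. The members together took 2135 to 2266 CPM in KD1, 2147 to 2356 CPM in KD2 and 1443 to 1563 CPM in lacZ.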

How the data were processed

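RNA sequencing of polyadenylated RNA gave 9 libraries, 3 each of KD1, KD2 and lacZ cells, grouped by their titles. The deposited values are raw read counts per gene that the authors made with STAR 2.5.1b, SAMtools 1.2 and featureCounts of Subread 1.4.6-p2 on the BDGP6 (dm6) genome, per the submitters' processing notes; the strand setting is not given in the sources used here. No column was left unmapped (0). Symbols came from a FlyBase identifier table, which lacked 306 identifiers, and positions from Ensembl gene models of BDGP6.

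CPM is the count divided by the library total, times 1000000. Genes with a mean above 1 CPM (7406) were fitted with DESeq2 1.42.0 (R 4.3.3), a 3-level group factor and all 9 libraries, with Benjamini-Hochberg adjustment over all genes and independent filtering at 0.1, with a threshold of an adjusted p under 0.05 and over 1.3-fold. The fit was tested on simulated counts that had the same noise setting for every gene and no library effects beyond size. That test does not cover the noise of these libraries. Alternatives were edgeR 4.0.16 (quasi-likelihood test), TMM factors, no filter, a replicate block, only the groups compared, other selection limits and each library left out.

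Genes described with every library's value were the 12 with the largest smaller ratio, the 6 with the highest lacZ mean and the 4 with the largest KD1 to KD2 difference. PolZ2, Hen1, Hml and CG12325 were added after their values were seen; others were named by role. Members and lists were chosen with earlier results of these data known. The lists of families and of ribosome assembly, DNA repair and small RNA genes were written after the members' values were seen. Promoter motifs and protein sequences were not analysed here, as no sequence was used.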

Additional observations from a re-analysis of the deposited data

How the results depend on the processing

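The number of genes selected was 57. It was 35 with a minimum mean of 10 CPM, 207 with a fold limit of 1.2, 22 with a fold limit of 1.5 and 37 when only genes with no exon overlap were kept, an alternative added after seeing the data. Median-of-ratios scaling gave 75 genes and TMM scaling 77, each with all 57 among them, and leaving out each library in turn gave 52 to 86, the highest without lacZ replicate 2, with 46 to 56 of the 57 kept and the fewest without lacZ replicate 1. In KD1, 54 members passed the threshold, 55 with edgeR, and 48 to 54 without single libraries. In KD2, 57 passed, and 50 to 55 without single libraries. Of the 57, 33 kept their call in both knockdowns under every alternative fit, and no called fold change changed sign. Whether equal replicate numbers mark a shared culture is not known. After removal of group means, same-numbered libraries correlated at -0.35 to 0.161 and libraries with different numbers at -0.332 to 0.34. With so few libraries in a group and such wide ranges, these values cannot decide it. Adding the replicate block to the model left 36 members past the threshold in KD1 and 39 in KD2, with zye and HDAC11 among those no longer called in either and osy no longer called in KD1, and it left 13 assembly factors in KD1 and 11 in KD2, against 14 in both without it. Among the genes described in full, DESeq2 no longer called HDAC11 in KD1 without KD1 replicate 1 (adjusted p = 0.0744), CG7607 in KD2 without KD2 replicate 1 (0.0514), or CG14183 in KD2 without KD2 replicate 1, KD2 replicate 4 or lacZ replicate 1 (0.0515 to 0.0788). The count of members that differed between KD1 and KD2 was 0 in every fit. The cause of these differences was not tested. Depth limits the weakly expressed genes most, since 22 members had a mean under 10 CPM.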
